A study of Mus musculus with 12 samples.

Results

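The genes described are those of fatty acid and sterol synthesis and the regulators of both, 33 genes in all, read in mouse embryonic stem cells with and without the chromatin-associated proteins Dppa2 and Dppa4. They were put together as a pathway list, 10 genes of fatty acid synthesis, 18 of sterol synthesis or transport and 5 of the SREBP system. Of the 33, 30 had a probe set assigned to that gene alone on the array, among 22180 genes measured that way: 9 of the 10 fatty acid genes, 16 of the 18 sterol genes and all 5 regulators. For Scd2 and Idi1 the probe set carried several gene symbols, and Acat2 had none listed, so these 3 were not read. The list was chosen by function, but with earlier results of these arrays in view, in which Scd1 was among the genes lower in both add-back groups than in the knockout and Scd3 among those lower with the mutant add-back. Those differences are therefore described here for Scd1 and Scd3 with no test.

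Each of the 4 groups held 3 arrays. All cells carried a MERVL::tdTomato reporter, in which the MERVL promoter, silent in most embryonic stem cells and on in 2-cell-like ones, drives a fluorescent protein, and were cultured on gelatin with LIF and knock-out serum replacement. The groups were the reporter line itself (parental), the line with Dppa2/4 knocked out (KO), KO cells given Dppa2/4 WT-GFP (KO+WT), and KO cells given Dppa2/4 Mut-GFP (KO+Mut). The design text calls the mutant proteins SUMO deficient, SUMO being a small protein attached to other proteins. Add-back cells were lipofected and sorted for GFP, steps that are not stated for parental and KO cells. Transfection, sorting and the add-back itself therefore cannot be told apart in a comparison of an add-back group with KO or parental cells, while both add-back groups share them. The number of knockout clones and the passages of the cells are not stated, and the samples are called biological replicates with no further detail, so p-values measure the spread between these samples. Values are log2 signals of bulk RNA, in which a change in the number of cells of a type and a change in RNA per cell cannot be told apart. A level is compared only between arrays for the same gene, since probe sets of different genes have no common scale.

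The label of the cells and the knockout were read first. Of 10 markers of pluripotent stem cells, 8 lay above the upper quartile of all genes on all 12 arrays, and their mean log2 level was 8.64 to 8.66 in parental, 8.74 to 8.82 in KO, 8.65 to 8.68 in KO+WT and 8.57 to 8.67 in KO+Mut arrays. Dppa2 averaged 9.77 ± 0.41 in parental, 8.48 ± 0.31 in KO, 11.08 ± 0.28 in KO+WT and 11.20 ± 0.09 in KO+Mut cells (SD, n = 3). Dppa4 averaged 8.46 ± 0.19, 7.62 ± 0.30, 10.39 ± 0.26 and 10.54 ± 0.14 in the same order, so both genes were above their parental level in both add-back groups. KO differed from parental by -1.29 (SE 0.21, adjusted p 0.0259) for Dppa2 and by -0.84 (SE 0.18, adjusted p 0.102) for Dppa4 (limma). Which part of each gene was removed and where its probes lie are not stated, so the signal left in KO cells is no check of the deletion. Markers of 2-cell-like cells moved with the same groups: the summed log2 level of the 11 measured of 13 was 42.2 to 51.0 in parental, 27.0 to 29.1 in KO, 74.5 to 93.1 in KO+WT and 86.4 to 97.5 in KO+Mut arrays. Of these 11, 2 were below the lower quartile of all genes on every parental array, 6 on every KO array, 2 on every KO+WT array and 1 on every KO+Mut array. The summed level of 13 primitive endoderm markers was 76.4 to 83.1 in parental, 70.6 to 74.3 in KO, 72.0 to 73.6 in KO+WT and 70.7 to 72.3 in KO+Mut arrays. That of 12 fibroblast markers was 52.8 to 54.3, 52.1 to 53.2, 53.6 to 54.6 and 53.5 to 55.2 in that order, with 3 of the 12 below the lower quartile on every array. The part of the 2-cell-like and endoderm markers in the lipid gene results was not tested.

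Cells make fatty acids and sterols from the same precursor, acetyl-CoA in the cytosol. The SREBP transcription factors, made from Srebf1 and Srebf2, are kept in the endoplasmic reticulum by Scap and the Insig proteins while sterols are plentiful, and are carried to the Golgi and cut free when sterols run short. The freed factors bind sterol regulatory elements, usually together with NF-Y, a factor that binds CCAAT boxes. Srebf2 acts mainly on sterol genes and Srebf1 mainly on fatty acid genes, among them the stearoyl-CoA desaturases.

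Promoter sequence was available for 14 of the 18 sterol genes, 7 of the 10 fatty acid genes and all 5 regulators (RefSeq, GRCm38.p6). Each promoter ran from 250 bases before to 50 bases after the start that the table gives, and both strands were searched. For 19 of these 26 genes that start, or 1 of several, was the outermost base of the annotated gene; for 7 it lay inside the gene, by more than 50 bases for 4 of them (Acaca, Fasn, Insig2 and Srebf1). A match was counted wherever its letters occurred, overlapping matches included. The CCAAT box lay in 13 of the 14 sterol promoters (92.9%), the exception being Acat2. It lay in 3 of 7 fatty acid promoters (42.9%, Fasn, Acly and Me1) and in 4 of 5 regulator promoters (80%, all but Scap). Among all 32851 promoters of that table, 37.4% held it, and 41.6% of the 16990 array genes with a promoter did. The sterol regulatory element core TCACNCCAC, N being any base, was found in 1 sterol gene, Hmgcs1 (7.14%), in none of the fatty acid genes or regulators, and in 1.24% of all promoters. Counted by gene, it lay in 1.43% of the array genes with a promoter. The E-box CACGTG, which SREBP proteins can also bind, lay in 3 sterol genes (Hsd17b7, Sc5d and Dhcr7, 21.4%), in 2 regulators (Scap and Insig1), in 0 fatty acid genes and in 7.15% of all promoters. By gene, 9.19% of the array genes with a promoter held it. These are matches of letters in a fixed window and were not tested as binding sites.

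The 4 stretches shown are those of sterol genes spaced along the pathway, and each ends at the base before the annotated gene begins. They are written on the strand of the gene, with CCAAT, its reverse complement ATTGG and the element core in capitals. Hmgcs1 is chr13:119690171-119690350 (+ strand) and holds the element core and 2 CCAAT boxes. Mvk is chr5:114444089-114444263 (+ strand), with 5 CCAAT boxes, and Lss is chr10:76531505-76531564 (+ strand), with 1. Msmo1 is chr8:64733579-64733748 (- strand), with 3.
Hmgcs1: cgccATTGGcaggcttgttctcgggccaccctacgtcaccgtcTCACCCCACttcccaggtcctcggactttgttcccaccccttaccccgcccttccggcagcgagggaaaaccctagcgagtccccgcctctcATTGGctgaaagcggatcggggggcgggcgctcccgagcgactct
Mvk: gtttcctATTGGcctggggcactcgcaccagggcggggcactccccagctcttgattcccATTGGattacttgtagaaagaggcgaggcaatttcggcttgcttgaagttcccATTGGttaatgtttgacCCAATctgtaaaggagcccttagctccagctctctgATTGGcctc
Lss: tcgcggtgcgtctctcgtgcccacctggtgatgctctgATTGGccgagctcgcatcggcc
Msmo1: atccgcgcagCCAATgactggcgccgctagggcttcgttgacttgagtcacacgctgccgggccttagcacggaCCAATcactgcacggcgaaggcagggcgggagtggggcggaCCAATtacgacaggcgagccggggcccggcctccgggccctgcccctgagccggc

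Scd1, a stearoyl-CoA desaturase that puts the first double bond into saturated fatty acids, showed the largest differences of the 30 genes between either add-back group and the KO or parental cells. Its log2 signal stood at 7.63, 7.27 and 7.40 in parental cells, 7.53, 7.08 and 7.70 in KO, 6.52, 6.49 and 6.42 in KO+WT, then 6.57, 6.17 and 6.53 in KO+Mut. All 6 add-back arrays thus lay below all 6 parental and KO arrays, and parental and KO overlapped. Against KO, Scd1 was lower by 0.96 (SE 0.17) on the log2 scale in KO+WT, a 1.94-fold difference, and by 1.01 (SE 0.17) in KO+Mut, a 2.02-fold difference. These values chose the gene and carry no test, and with each of the 6 arrays of the comparison left out in turn the KO+WT difference ran from -1.14 to -0.83. Parental and KO means differed by 0.00 (SE 0.17), with a 95% interval from -0.36 to 0.36. The KO+Mut mean differed from KO+WT by -0.06 (SE 0.17), with an interval from -0.42 to 0.31.

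Scd3, a paralog of Scd1, was dim, between percentile 36.2 and percentile 52.3 of all genes over the 12 arrays. It read 3.97, 4.28 and 3.88 in parental, 4.53, 4.25 and 4.42 in KO, 4.17, 3.90 and 3.98 in KO+WT, then 3.75, 3.48 and 3.82 in KO+Mut cells. The 3 KO+Mut arrays lay below the 9 others, and the 3 KO arrays lay above both add-back groups but overlapped the parental group. Scd3 was lower than in KO by 0.38 (SE 0.14) in KO+WT and by 0.71 (SE 0.14) in KO+Mut, again as a description with no test. Scd3, Scd2, Scd4 and Scd1 lie next to each other in that order on chromosome 19 (protein-coding genes, RefSeq), and whether their probe sets share sequence was not tested, so the split of signal between these paralogs is uncertain.

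**Figure D1:**
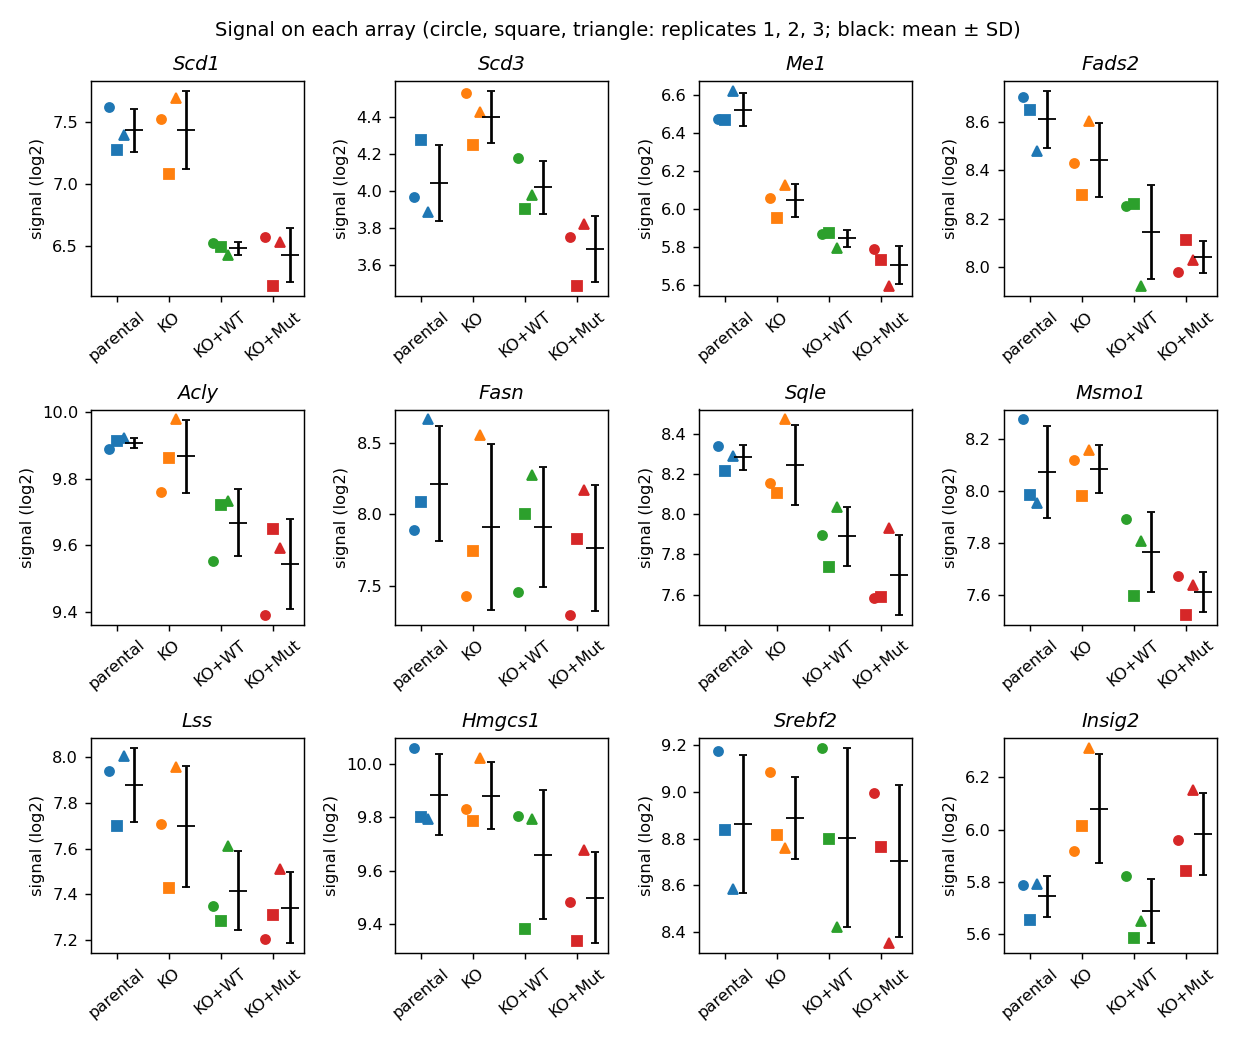
Log2 signal (vertical axes) of 12 of the 30 genes in parental, KO, KO+WT and KO+Mut cells, with 1 point per array, circles, squares and triangles for replicates 1, 2 and 3, and the mean ± SD of 3 arrays in black. For Scd1 all 6 add-back arrays lie at 6.57 or below and all parental and KO arrays at 7.08 or above, whereas for Fasn and Srebf2 the replicates spread more widely than the groups differ.

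Me1, the malic enzyme that supplies NADPH for lipid synthesis, was the fatty acid gene with the clearest tested difference, and the difference was from parental cells. Its signal stood at 6.47, 6.47 and 6.62 in parental, 6.06, 5.95 and 6.13 in KO, 5.87, 5.88 and 5.79 in KO+WT, then 5.79, 5.73 and 5.59 in KO+Mut. The 4 groups did not overlap at any point, stepping down from parental through KO and KO+WT to KO+Mut. Against parental cells Me1 fell by 0.68 (SE 0.11) in KO+WT, 1.60-fold, with an adjusted p of 0.0135, and by 0.82 (SE 0.11) in KO+Mut, 1.76-fold, with an adjusted p of 0.0022 (limma, Benjamini-Hochberg over all 22180 genes). The KO+Mut call held without any 1 array (highest adjusted p 0.0169), while the KO+WT call was lost without parental replicate 2 (adjusted p 0.0555), parental replicate 3 (0.0805) or KO+WT replicate 3 (0.0554), and with the 6 arrays of that comparison alone (0.0931). The step from parental to KO, -0.48 (SE 0.11), did not pass the test (adjusted p 0.133, limma). Neither did the further differences of KO+WT from KO, -0.20 (SE 0.11, adjusted p 0.495), and of KO+Mut from KO, -0.34 (SE 0.11, adjusted p 0.186). The order of KO, KO+WT and KO+Mut is thus that of the measured values and not a tested one.

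Fads2, the delta-6 desaturase of polyunsaturated fatty acids, read 8.70, 8.65 and 8.48 in parental, 8.43, 8.30 and 8.60 in KO, 8.25, 8.26 and 7.92 in KO+WT, then 7.98, 8.11 and 8.03 in KO+Mut. Every add-back array was below every parental and KO array. The difference of KO+Mut from parental was -0.57 (SE 0.13), with an adjusted p of 0.0649 in the plain fit and 0.0418 when replicate number was fitted as a block (limma). It also passed after median centring (0.0454), with the percentile 25 filter (0.0471), with trended robust variances (0.0293) and with array weights (0.0241). In the other alternatives, each refit without 1 array included, it did not pass. Against KO the differences were -0.30 (SE 0.13, adjusted p 0.387) in KO+WT and -0.40 (SE 0.13, adjusted p 0.202) in KO+Mut. Fads1, its delta-5 neighbour on the chromosome, read 8.84, 8.66 and 8.62 in parental, 8.95, 8.62 and 8.64 in KO, 8.69, 8.52 and 8.19 in KO+WT, then 8.36, 8.53 and 7.96 in KO+Mut. Its KO+Mut arrays were all below its KO arrays, by 0.45 on average (SE 0.17, adjusted p 0.292), and its KO+WT arrays overlapped them.

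Acly, which makes cytosolic acetyl-CoA from citrate, read 9.89, 9.91 and 9.92 in parental, 9.76, 9.86 and 9.98 in KO, 9.55, 9.72 and 9.73 in KO+WT, then 9.39, 9.65 and 9.59 in KO+Mut. All 6 add-back arrays were below the others, but by 0.20 (SE 0.11, adjusted p 0.521) and 0.32 (SE 0.11, adjusted p 0.243) against KO, which passed no test.

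The remaining fatty acid genes build and lengthen the carbon chain. Fasn, the fatty acid synthase, read 7.89, 8.08 and 8.66 in parental, 7.43, 7.74 and 8.55 in KO, 7.45, 8.00 and 8.27 in KO+WT, then 7.30, 7.83 and 8.17 in KO+Mut. Replicate 3 was highest and replicate 1 lowest in every group, and Fasn had the largest pooled within-group SD of the 30 genes, 0.47. Its difference from KO was 0.00 in KO+WT (SE 0.31, adjusted p 0.999) and -0.14 in KO+Mut (SE 0.31, adjusted p 0.905). Acaca, the acetyl-CoA carboxylase that commits carbon to fatty acids, ran from 6.28 to 6.96 over all 12 arrays. Its differences from KO were -0.15 and -0.12, with overlapping arrays, and its KO+Mut arrays lay below all parental arrays. Elovl6, which lengthens saturated chains, read 10.53, 10.53 and 10.30 in parental, 10.60, 10.69 and 10.50 in KO, 10.66, 10.66 and 10.57 in KO+WT, then 10.56, 10.70 and 10.56 in KO+Mut. It was the only measured fatty acid gene with a higher mean in KO+Mut than in KO, by 0.01 (SE 0.11, adjusted p 0.986).

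As a list, the 9 fatty acid genes had a median difference from KO of -0.20 in KO+WT (7 of 9 below 0) and -0.34 in KO+Mut (8 of 9 below 0). Over all 22180 genes the medians were -0.00 and -0.01, with 50.1% and 51.3% below 0. The list includes Scd1 and Scd3, whose falls brought them in, and both comparisons share the KO arrays.

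Sterol synthesis runs from acetyl-CoA through mevalonate to squalene and from there through lanosterol to cholesterol, and the 16 measured genes cover each stretch. None of the 16 passed the test between either add-back group and KO in the plain fit, without the replicate block, although nearly all had lower means. The median difference was -0.23 in KO+WT, with 15 of 16 below 0, and -0.26 in KO+Mut, with 16 of 16 below 0. The one gene above 0 in KO+WT was Mvd, at 0.12 (SE 0.13, adjusted p 0.770). The interquartile range of all genes was -0.14 to 0.15 for KO+WT and -0.15 to 0.14 for KO+Mut. The 10 pluripotent stem cell markers, most of them bright, also had medians below 0 against KO. These were -0.10 in KO+WT, with 8 of 10 below 0, and -0.19 in KO+Mut, with 7 of 10 below 0.

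In the mevalonate stretch, Hmgcs1, the synthase that makes HMG-CoA, read 10.06, 9.80 and 9.80 in parental, 9.83, 9.79 and 10.02 in KO, 9.80, 9.38 and 9.79 in KO+WT, then 9.48, 9.34 and 9.68 in KO+Mut. The KO+Mut arrays lay below all parental and KO arrays, by 0.38 against KO (SE 0.15, adjusted p 0.300), and the KO+WT arrays overlapped KO. Mvk, mevalonate kinase, had the smallest pooled SD of the 30 genes, 0.075, and read 6.54, 6.65 and 6.59 in parental, 6.55, 6.60 and 6.65 in KO, 6.25, 6.45 and 6.35 in KO+WT, then 6.42, 6.43 and 6.58 in KO+Mut. Here it was KO+WT that lay apart from KO, by -0.25 (SE 0.11, adjusted p 0.376). Pmvk, the next kinase, read 7.64, 7.66 and 7.36 in parental, 7.81, 7.90 and 7.86 in KO, 7.88, 7.71 and 7.68 in KO+WT, then 7.93, 7.66 and 7.73 in KO+Mut. Mvd, which makes isopentenyl pyrophosphate, read 7.19, 6.91 and 7.00, then 6.67, 6.75 and 7.03, then 6.87, 6.86 and 7.09, and last 6.75, 6.74 and 6.87 in the same order of groups. Neither Pmvk nor Mvd separated KO from an add-back group.

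Fdps, which makes farnesyl pyrophosphate, ran from 8.00 to 8.59, and its KO+Mut difference from KO was -0.29 (SE 0.12, adjusted p 0.355). Fdft1, squalene synthase, read 8.69, 8.68 and 8.69 in parental, 8.68, 8.52 and 8.84 in KO, 8.81, 8.59 and 8.57 in KO+WT, then 8.37, 8.43 and 8.58 in KO+Mut. Its 3 parental arrays lay within 0.02 of each other, while the KO arrays overlapped both add-back groups.

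Sqle, squalene epoxidase, had the largest sterol difference between KO+Mut and KO. It read 8.34, 8.22 and 8.29 in parental, 8.16, 8.11 and 8.47 in KO, 7.89, 7.74 and 8.03 in KO+WT, then 7.58, 7.59 and 7.93 in KO+Mut. All 6 add-back arrays were below all others. Against KO the difference was -0.36 (SE 0.14, adjusted p 0.333) in KO+WT and -0.55 (SE 0.14, adjusted p 0.0922) in KO+Mut, and against parental it was -0.58 (SE 0.14) in KO+Mut, with an adjusted p of 0.0811 without and 0.0153 with the replicate block (limma).

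Lss, lanosterol synthase, read 7.94, 7.70 and 8.00 in parental, 7.71, 7.43 and 7.96 in KO, 7.35, 7.29 and 7.61 in KO+WT, then 7.20, 7.31 and 7.51 in KO+Mut. Both add-back groups lay below the parental group, and the KO group overlapped all 3 others. With the replicate block Lss was lower than parental in KO+WT by 0.46 (adjusted p 0.0474) and in KO+Mut by 0.54 (adjusted p 0.0210), while without the block the adjusted p was 0.295 and 0.168 (limma).

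Msmo1, a methylsterol oxidase that removes methyl groups from lanosterol's products, read 8.28, 7.99 and 7.95 in parental, 8.12, 7.98 and 8.16 in KO, 7.89, 7.59 and 7.81 in KO+WT, then 7.67, 7.52 and 7.64 in KO+Mut. Every add-back array was below every other array. The difference from KO was -0.32 (SE 0.13, adjusted p 0.331) in KO+WT and -0.48 (SE 0.13, adjusted p 0.106) in KO+Mut. Against parental, KO+Mut differed by -0.46 (SE 0.13), with an adjusted p of 0.134 without and 0.0297 with the block (limma).

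Nsdhl, which works on the same methyl groups, read 8.28, 8.42 and 8.18 in parental, 8.26, 8.36 and 8.30 in KO, 8.20, 8.37 and 8.17 in KO+WT, then 7.98, 8.13 and 8.01 in KO+Mut. Its KO+Mut arrays were below all 9 others, by 0.26 against KO (SE 0.11, adjusted p 0.352). Sc5d, a late desaturase of the sterol ring, had add-back arrays from 7.21 to 7.41 and parental and KO arrays from 7.48 to 7.74, with no overlap, and differed from KO by -0.21 (SE 0.11, adjusted p 0.505) and -0.24 (SE 0.11, adjusted p 0.415). Cyp51, Hsd17b7, Ebp and Dhcr7, further enzymes of the post-lanosterol steps, had differences from KO between -0.32 and -0.07, none past the test. Stard4, which carries cholesterol between membranes and does not synthesize it, was lower than KO by 0.36 (SE 0.20, adjusted p 0.510) in KO+WT and 0.46 (SE 0.20, adjusted p 0.370) in KO+Mut.

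**Figure D2:**
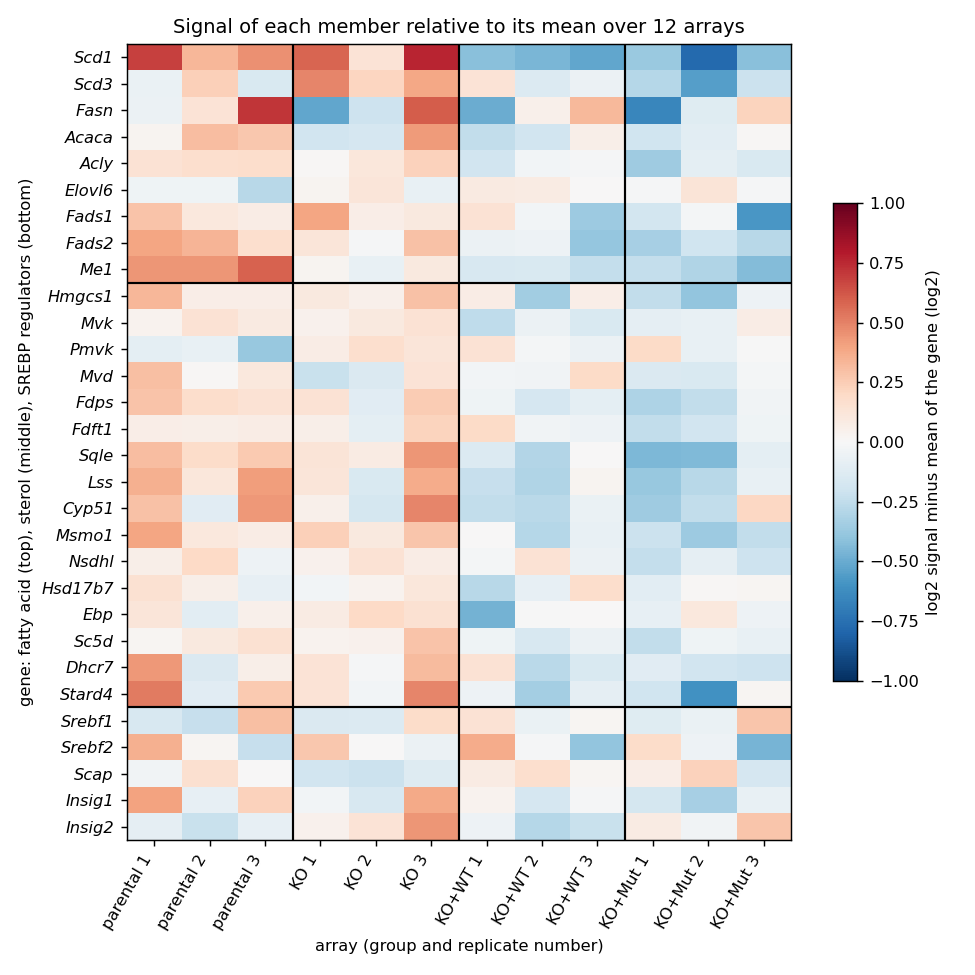
Log2 signal of the 30 genes (rows) on the 12 arrays (columns, by group and replicate), each as its difference from the gene's own mean over all arrays, on a colour scale from -1 to 1, with fatty acid genes on top, sterol genes in the middle and the SREBP regulators below. Scd1 has the strongest contrast, its 6 add-back arrays lying below its parental and KO arrays, and Fasn varies by replicate number inside every group.

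The 5 SREBP regulators were mixed in direction, with 3 of 5 means below KO in each add-back group and none past the test. Srebf2 read 9.17, 8.84 and 8.58 in parental, 9.09, 8.82 and 8.76 in KO, 9.19, 8.80 and 8.42 in KO+WT, then 9.00, 8.77 and 8.35 in KO+Mut. Replicate 1 was highest and replicate 3 lowest in each group, and the difference from KO was -0.08 (SE 0.22, adjusted p 0.917) and -0.18 (SE 0.22, adjusted p 0.800). Srebf2 and Fasn were the 2 of 30 genes in which the 3 replicate numbers kept 1 order in all 4 groups, against 7.4% of all genes. Srebf1 read 6.37, 6.29 and 6.82 in parental, 6.38, 6.39 and 6.70 in KO, 6.67, 6.45 and 6.54 in KO+WT, then 6.40, 6.46 and 6.80 in KO+Mut, a difference from KO of 0.06 (SE 0.16) in each add-back group.

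Scap, the escort of the SREBP proteins, read 7.18, 7.38 and 7.22 in parental, 7.02, 7.00 and 7.08 in KO, 7.29, 7.38 and 7.23 in KO+WT, then 7.28, 7.44 and 7.05 in KO+Mut. The KO arrays were below those of the parental and KO+WT groups, by 0.23 against parental (SE 0.12, adjusted p 0.814, limma). Scap was the only one of the 30 with a second probe set, a dimmer one that read 3.86, 4.36 and 3.53 in parental, 3.93, 3.88 and 3.99 in KO, 3.72, 3.84 and 4.10 in KO+WT, then 4.06, 4.06 and 4.01 in KO+Mut. On it the KO arrays lay inside the parental range, so the 2 probe sets disagreed on the KO group.

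Insig1, itself a target of SREBP proteins, read 9.58, 9.10 and 9.41 in parental, 9.16, 9.02 and 9.56 in KO, 9.22, 9.01 and 9.17 in KO+WT, then 9.01, 8.85 and 9.11 in KO+Mut. Its groups overlapped between KO and both add-backs, and the KO+Mut difference from KO was -0.26 (SE 0.16, adjusted p 0.566). Insig2, the other retention protein, read 5.79, 5.66 and 5.79 in parental, 5.92, 6.01 and 6.31 in KO, 5.82, 5.59 and 5.65 in KO+WT, then 5.96, 5.84 and 6.15 in KO+Mut. Parental and KO+WT arrays were at 5.82 or below and KO and KO+Mut arrays at 5.84 or above. The differences were 0.34 (SE 0.13, adjusted p 0.611) for KO against parental and -0.39 (SE 0.13, adjusted p 0.25) for KO+WT against KO, neither past the test (limma).

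The comparison of KO with parental cells asks what loss of Dppa2 and Dppa4 does to these genes. By limma 0 of 30 passed an adjusted p of 0.05, and 4 had an unadjusted p under 0.05 (Me1, Scd3, Insig2 and Pmvk), as did 6.94% of all genes. Scd3 is counted there as a description only, since its KO arrays are among those that chose it. The share of all genes called lower was 0.203%. Groups did not overlap for 4 of the 30, Me1 and Scap lower and Pmvk and Insig2 higher, and of all genes 6.83% were lower and 6.11% higher without overlap. The median difference was -0.04 for the fatty acid genes and -0.00 for the sterol genes, of which 9 of 16 were below 0. The 95% interval of 1 gene's difference, not adjusted for the number of genes, had a median half-width of 0.34 over all genes. Passing the adjusted threshold took more, and Me1 at -0.48 did not pass (adjusted p 0.133, limma). In data simulated with independent noise on each array, 13 of 50 genes changed by 0.5 were recovered. Thus 0 of 30 does not exclude changes of that size.

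Against KO, 1 of 30 genes was called lower in KO+WT (Scd1) and 2 in KO+Mut (Scd1 and Scd3), and none higher. The background was 0.0992% of all genes called lower for KO+WT and 0.153% for KO+Mut, and because those contrasts chose the genes nothing is read from the counts. Groups did not overlap for 12 genes that were lower in KO+WT (background 7.43%) and for 12 that were lower in KO+Mut (background 8.77%). In the other direction the counts were 1 in KO+WT, Scap, against 8.61% of all genes, and 0 in KO+Mut, against 9.24%. In KO+WT these were Scd1, Scd3, Acly, Fads2, Me1, Mvk, Sqle, Msmo1, Ebp, Sc5d, Stard4 and Insig2, and in KO+Mut Scd1, Scd3, Acly, Fads1, Fads2, Me1, Hmgcs1, Sqle, Msmo1, Nsdhl, Sc5d and Dhcr7. In 7 genes, 4 of fatty acid and 3 of sterol synthesis (Scd1, Acly, Fads2, Me1, Sqle, Msmo1 and Sc5d), all 6 add-back arrays lay below all 6 parental and KO arrays, a pattern found in 1.51% of all genes. Both counts hold Scd1, and the count for the comparisons with KO holds Scd3 as well. Array medians over all probe sets were 0.08 higher in add-back than in KO arrays in both groups. These medians lie at a lower signal than most of the 30 genes, and a shift at the signal of the 30 genes was not tested. The upper quartiles overlapped, at 5.81 to 5.84 in KO, 5.74 to 5.86 in KO+WT and 5.76 to 5.85 in KO+Mut arrays. Of the genes above percentile 25 of mean signal, 52.9% were below KO in KO+WT and 53.9% in KO+Mut.

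**Figure D3:**
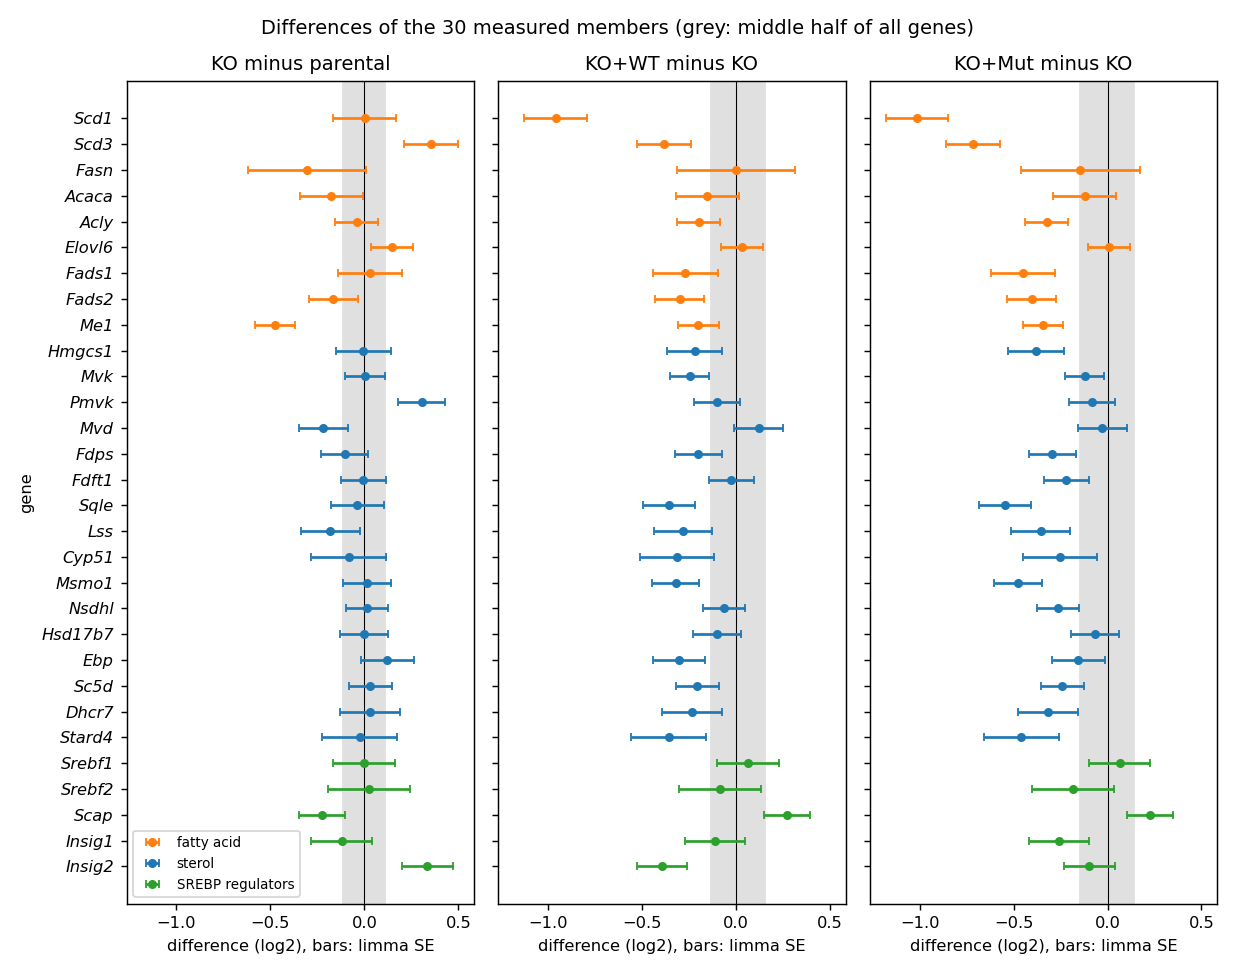
Difference in log2 signal for each of the 30 genes in KO minus parental, KO+WT minus KO and KO+Mut minus KO, with bars of 1 limma standard error and the interquartile range of all 22180 genes in grey. The sterol genes sit around 0 in KO minus parental (median -0.00) and mostly below 0 in both add-back comparisons (15 and 16 of 16), which share the KO arrays.

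Against parental cells, the same add-back arrays gave 2 of 30 genes lower in each add-back group, Me1 and Scd1 (background 0.23% for KO+WT and 0.338% for KO+Mut), and none higher. Scd1, whose add-back arrays are those that chose it, differed from parental by -0.96 (SE 0.17) and -1.01 (SE 0.17). Same-numbered arrays deviated together in these comparisons, so the replicate number was also fitted as a block. The counts were then 3 in KO+WT, with Lss added (background 0.996%), and 6 in KO+Mut, with Fads2, Lss, Msmo1 and Sqle added (background 1.54%). Groups did not overlap for 10 genes that were lower in KO+WT (background 7.8%) and 16 that were lower in KO+Mut (background 9.38%). Both counts hold Scd1, and the KO+Mut count holds Scd3 as well, genes chosen by their low add-back arrays. Higher without overlap were Elovl6 and Pmvk in KO+WT (background 8.05%), and Elovl6 and Insig2 in KO+Mut (background 8.63%). The medians were -0.30 and -0.42 for the fatty acid genes, Scd1 and Scd3 included, and -0.22 and -0.27 for the sterol genes. Over all genes they were 0.00 and -0.00.

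The comparison of KO+Mut with KO+WT asks whether the SUMO-deficient proteins act differently from the wild type, and both groups were transfected and sorted. By limma 0 of 30 genes and 0 of all 22180 passed (background 0.0%), while 2 of 30, Scd3 and Insig2, and 675 of all genes (3.04%) had an unadjusted p under 0.05. With the replicate block, too, 0 passed, and 3 of the 30 and 1214 of all genes (5.47%) had an unadjusted p under 0.05. Insig2 differed by 0.30 (SE 0.13, interval 0.01 to 0.59). Scd3 differed by -0.33 (SE 0.14), a description only, since its low KO+Mut arrays are those that chose it. Groups did not overlap for 3 genes lower in KO+Mut, Scd3, Me1 and Nsdhl, against 3.62% of all genes, and for Insig2, which was higher, against 3.07%. Me1 differed by -0.14 (interval -0.37 to 0.09), Nsdhl by -0.20 (interval -0.44 to 0.04) and Sqle by -0.19 (interval -0.49 to 0.11). The medians were -0.12 for fatty acid genes (8 of 9 below 0) and -0.09 for sterol genes (11 of 16 below 0), beside -0.01 for all genes with 52.3% below 0.

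Other genes of lipid metabolism were read as 4 lists. Of 25 measured other genes of fatty acid synthesis and activation (27 listed), none passed against KO without the block, and the medians were 0.04 in KO+WT and -0.03 in KO+Mut. Against parental, 2 of the 25 were lower in KO+Mut. Slc25a1, the carrier that exports citrate from mitochondria, read 9.07, 9.02 and 8.99 in parental, 8.67, 8.53 and 8.72 in KO, 8.66, 8.50 and 8.35 in KO+WT, then 8.18, 8.34 and 8.24 in KO+Mut. It fell by 0.77 in KO+Mut against parental (SE 0.11, adjusted p 0.00529, limma), a call kept without any 1 array, and the KO+WT difference was -0.52 (adjusted p 0.0745 without and 0.0361 with the block). As for Me1, its KO arrays were already below all parental arrays, by 0.39 (SE 0.11, adjusted p 0.363).

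Acsl4, which activates polyunsaturated fatty acids, differed by -0.69 in KO+Mut against parental (SE 0.15, adjusted p 0.0479), a call lost in each of the 6 refits without 1 array (adjusted p 0.0745 to 0.202) and after repeated quantile normalization (0.0633). With the replicate block its adjusted p was 0.0178. It read 6.96, 6.80 and 6.98 in parental, 6.78, 6.60 and 7.14 in KO, 6.64, 6.32 and 6.36 in KO+WT, then 6.35, 6.12 and 6.19 in KO+Mut, with the KO+Mut arrays below all parental and KO arrays.

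Of 16 measured other sterol genes (22 listed), 1 passed against KO without the block, and the medians were -0.12 in KO+WT and -0.21 in KO+Mut. It was Mbtps2, the protease that makes the second cut freeing SREBP proteins, at 6.66, 6.46 and 6.36 in parental, 6.70, 6.56 and 6.52 in KO, 6.43, 5.98 and 6.04 in KO+WT, then 6.01, 6.01 and 5.85 in KO+Mut. The KO+Mut arrays were below all parental and KO arrays, by 0.64 against KO (SE 0.14, adjusted p 0.0456, limma), and the call was lost in each of the 6 refits without 1 array (adjusted p 0.1 to 0.153), after repeated quantile normalization (0.0736) and with the 6 arrays of the comparison alone (0.0622). Against parental, KO+Mut differed by -0.54 (SE 0.14), with an adjusted p of 0.11 without and 0.0199 with the block. Of 13 measured genes of fatty acid oxidation, none passed, with medians of -0.14 in KO+WT and -0.11 in KO+Mut. The smallest p among them was that of Acadvl in both comparisons, at 0.25 (SE 0.12, adjusted p 0.425) and 0.40 (SE 0.12, adjusted p 0.155). Of 10 genes of triglyceride and lipid droplet formation none passed, with medians of 0.07 and 0.12. In that list Fitm2, a protein of lipid droplet budding, had the smallest p in both, at -0.25 (SE 0.12, adjusted p 0.460) and -0.54 (SE 0.12, adjusted p 0.0561).

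**Figure D4:**
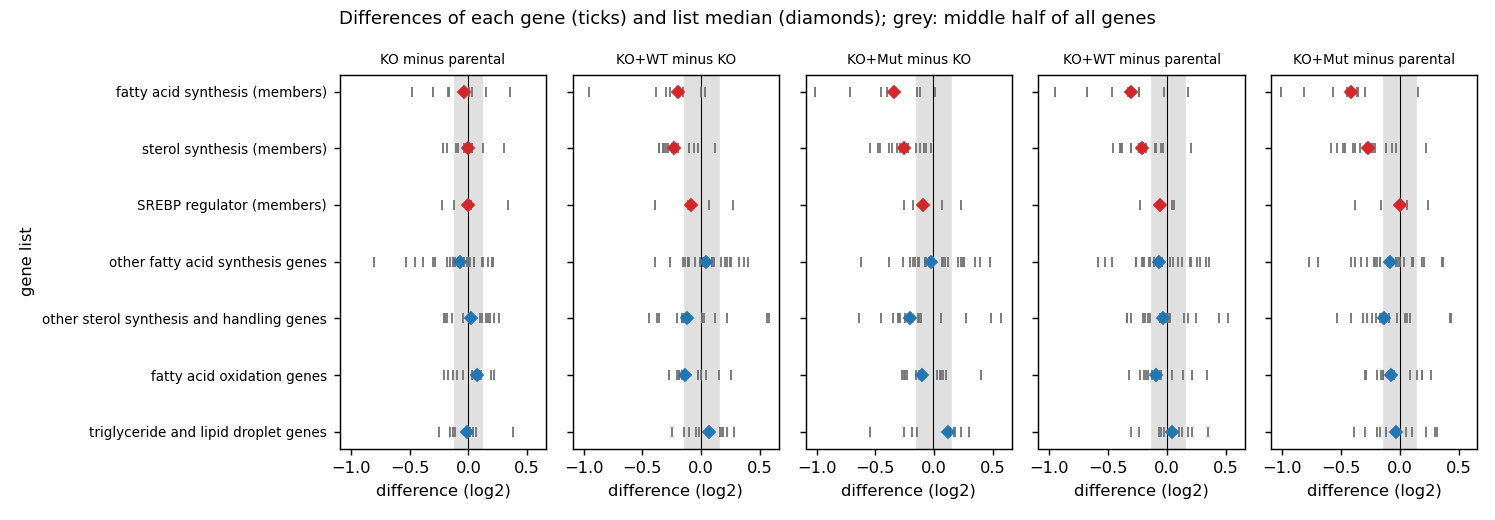
Differences in log2 signal of the genes of 7 lipid lists (ticks) with each list's median (diamonds), in 5 comparisons, and the interquartile range of all 22180 genes in grey. Against KO the sterol genes have medians of -0.23 and -0.26 and the fatty acid genes of -0.20 and -0.34, while the triglyceride and droplet genes have medians of 0.07 and 0.12.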

How the data were processed

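Total RNA from 12 samples was hybridised to 1 Affymetrix array each. The deposited log2 signals, which the authors had normalized, number 1 for each probe set on each array; the log2 scale was inferred from their range. The Transcriptome Analysis Console is named in the submitters' processing notes. For its version, background correction, summarization and genome build, nothing was given in the sources used here. Of 41345 probe sets, 23521 carried 1 gene symbol, 1814 several and 16010 none in the platform annotation; only the first were used, and a gene with several probe sets was read on that of highest mean over all arrays. Array medians ran from 3.73 to 3.88, and no 2 arrays were identical.

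One limma model (3.58.1, R 4.3.3) with 4 group means was fitted to 22180 genes on all 12 arrays, with 2-sided moderated tests, Benjamini-Hochberg adjustment over all genes in each comparison and a threshold of 0.05. Tables and plots used Python 3.11.15, pandas 2.3.3 and matplotlib 3.10.9. On simulated data for KO minus parental with 22180 genes, the fit recovered 13 of 50 genes changed by 0.5 on the log2 scale, 31 of 50 changed by 1, 47 of 50 by 1.5 and 48 of 50 by 2, with 7 false calls. The simulated noise was independent between arrays, without the shared deviations of same-numbered arrays. The 3 arrays per group limit the precision.

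Same-numbered arrays were checked for pairing by the correlation, across genes, of their deviations from the group means. It was above 0.1 for every number in KO minus parental (0.356, 0.153 and 0.417), KO+Mut minus KO+WT (0.401, 0.211 and 0.469), KO+WT minus parental (0.331, 0.15 and 0.313) and KO+Mut minus parental (0.327, 0.13 and 0.364). In both comparisons with KO 1 number was below it (0.064 and 0.082). For them the block is given only as an alternative, where the dependence on the processing is described.

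The members and lists were chosen with earlier results of these data known. Array values are given for genes past the threshold in any comparison with or without the block, the 3 of smallest p per synthesis list in the first 4 comparisons and the regulators; Fads1 and Fasn were added after their values were seen. From other lists, genes past the threshold are named, else that of smallest p. Alternatives were median centring, repeated quantile normalization, averaging a gene's probe sets, a filter at percentile 25 of mean signal, trended robust variances, array weights, the 6 arrays of a comparison alone, the replicate block and leaving out each array.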

Additional observations from a re-analysis of the deposited data

How the results depend on the processing

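For the 30 measured lipid genes and for Mbtps2, Slc25a1 and Acsl4, over 6 comparisons and all alternatives, 2772 differences were recomputed, and 0 genes past the threshold changed sign. Of these, 37 lost and 22 gained the threshold, and among 2610 past it in neither fit the sign changed in 129. With array weights 1 of 30 lipid genes was called between KO and parental (Me1, adjusted p 0.0372), where the main count was 0. With the 6 arrays of a comparison alone the counts were 0 for KO+WT minus KO, 1 for KO+Mut minus KO and 1 for KO+WT minus parental. With trended robust variances and with array weights the count for KO+Mut minus parental was 4. With the replicate block it was 6, and for KO+Mut minus KO, where the numbers did not pair all arrays, 4 (Msmo1, Scd1, Scd3 and Sqle). Array weights, too, added Sqle in KO+Mut minus KO (adjusted p 0.0468, limma). In the other lists the block added Acsl4 (adjusted p 0.0272, and 0.0489 after centring), Fitm2 (0.0167), Acadvl (0.0334) and Mylip (0.0488) in KO+Mut minus KO and Mbtps2 (0.0497) in KO+WT minus KO. The block changed no count of calls among the 30 genes in KO minus parental, KO+WT minus KO or KO+Mut minus KO+WT. Leaving out 1 array in turn gave 0 to 1 genes for KO+WT minus KO, 0 to 2 for KO+Mut minus KO and for KO+WT minus parental, and 1 to 2 for KO+Mut minus parental. Against KO these were Scd1 and, for KO+Mut, Scd3, genes that those contrasts chose, so the counts are a description and no test. Against parental they were Me1 and Scd1, the latter on the add-back arrays that chose it. The count was 0 for KO+WT minus KO without KO replicate 1 or 3 or KO+WT replicate 2 or 3. For KO+Mut minus KO it was 0 without KO+Mut replicate 2 and 1 without KO replicate 1 or 3 or KO+Mut replicate 1. For KO+WT minus parental it was 0 without parental replicate 2 or 3 or KO+WT replicate 3 and 1 without parental replicate 1 or KO+WT replicate 2, and for KO+Mut minus parental it was 1 without parental replicate 1 or KO+Mut replicate 2. The median of the fatty acid genes in KO+WT minus parental was -0.36 after centring and ran from -0.42 to -0.27 without 1 array. The causes were not tested.

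Over all settings the sterol median stayed between -0.31 and -0.14 for KO+WT minus KO and between -0.35 and -0.19 for KO+Mut minus KO, and the fatty acid median between -0.28 and -0.16 and between -0.42 and -0.30. Over all genes the block raised the genes lower from 45 to 97 (KO minus parental), 22 to 141 (KO+WT minus KO), 34 to 236 (KO+Mut minus KO), 51 to 221 (KO+WT minus parental) and 75 to 342 (KO+Mut minus parental). Median centring turned the split of higher to lower calls from 162 to 22 into 112 to 37 for KO+WT minus KO, and from 248 to 34 into 194 to 72 for KO+Mut minus KO. The array's background may limit the readings of dim genes such as Scd3, which was not tested.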

Other observations

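Mylip, which marks lipoprotein receptors for degradation and was in the list of other sterol genes, was the gene of that list with the smallest p in KO+WT minus KO. It read 5.71, 5.41 and 5.25 in parental, 5.54, 5.30 and 5.11 in KO, 5.81, 5.91 and 5.97 in KO+WT, then 5.84, 5.92 and 5.89 in KO+Mut. Every add-back array was above every parental and KO array, by 0.58 (SE 0.14, adjusted p 0.0959) and 0.57 (SE 0.14, adjusted p 0.0852) against KO by limma, which misses the threshold. Among other fatty acid genes, Elovl2, an elongase of polyunsaturated chains, had the smallest p in the same comparison, at 0.36 (SE 0.12, adjusted p 0.246), while the desaturases Fads1 and Fads2 had lower means in that group.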
